A study of Mus musculus with 2 samples.

Results

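The genes described here act in the metabolism of lipids and sterols, and their transcripts were measured in mouse morulae after microinjection of siRNA against leukemia inhibitory factor (LIF) or of scrambled siRNA. Members were the gene spots of the array whose names begin with a fixed set of words, such as fatty acid, acyl, sterol, phospholip, apolipoprotein, carnitine, sphingo and peroxi. The rule used the names alone and no measured value. It found 99 of 8735 gene spots, with 98 different names, and 96 of these names were paired with a current gene symbol of RefSeq. The words also took in genes that are not lipid enzymes, such as 4 peroxiredoxins, which remove peroxides, and the peroxin genes, which build the peroxisome.

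Embryos of the strain B6CBF1 were injected at the pronuclear stage with LIF-siRNA or scrambled siRNA, each at 1.0 fmol in the sample labels, and were 4 days old as whole embryos. The sources of the study disagree on the dose, and a description in the labels names untreated embryonic stem cells, unlike the titles and RNA sources by which the samples were assigned. RNA of pooled LIF-siRNA morulae was labeled with Cy5 and RNA of pooled scrambled-siRNA morulae with Cy3, on 2 arrays with the same dye order. Dye and treatment cannot be told apart, and a lower level of a transcript per cell cannot be told apart from fewer cells that hold it. The log2 ratio is that of LIF-siRNA over scrambled siRNA, so a negative value is a lower signal after LIF-siRNA. The same description calls the arrays biological replicates, but no other source says that they held separate pools, so p-values measure the spread between these arrays, which may be technical.

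LIF is a cytokine of the interleukin-6 family that signals through gp130, JAK kinases and STAT3. The preimplantation embryo draws on stored and newly made lipids. Fatty acids are carried by binding proteins, made by fatty acid synthase, imported into mitochondria through carnitine and oxidized, or built into phospholipids and sphingolipids. Cholesterol is made from acetyl-CoA through mevalonate and squalene.

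The array held 0 gene spots with the name of LIF, and its knockdown was not measured here. Across arrays and channels, the median gene spot stood 4.83 to 6.60 times over local background before normalization, and the median member 6.97 to 7.43 times. No member was saturated or marked as an outlier. The test took spots that stood well above background on each array, in Cy5, in Cy3 or in both, and 92 of the 99 members passed this filter. Of 8 markers of the morula, trophectoderm and inner cell mass, 5 were on the array, and Pou5f1, which maintains pluripotency, gave signals of 7313 and 8315 in Cy5 and 8862 and 8038 in Cy3. Of the markers of cumulus cells 1 of 6 was on the array, of oviduct 1 of 2, and of the oocyte 0 of 3. The summed signal of the 5 embryo markers was 20212 and 22698 in Cy5 and 27200 and 33127 in Cy3, with mean log2 ratios of -2.35 for Sox2, -1.95 for keratin 8, -0.11 for Pou5f1, 0.14 for eomesodermin and 0.47 for cadherin 1. The oviduct marker, oviductal glycoprotein 1, had 0.74 and 1.11 from signals of at most 624, and the cumulus marker had -0.63 and 0.23. The part of these markers in the ratios of the members was not tested.

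The sequences around the start sites are shown for 4 members, the pair with the highest and the lowest ratio (Fabp2 and Pemt), fatty acid synthase (Fasn) and acid sphingomyelinase (Smpd1). They are the RefSeq promoter windows of build GRCm38.p6, from 250 bases before to 50 bases after the start of the gene, written 5′ to 3′ on the strand of the gene. Capitals mark TTCNNNGAA, the palindromic GAS element bound by STAT proteins, and CCAAT, searched on both strands.
Fabp2, chr3:122894822-122895121, plus strand: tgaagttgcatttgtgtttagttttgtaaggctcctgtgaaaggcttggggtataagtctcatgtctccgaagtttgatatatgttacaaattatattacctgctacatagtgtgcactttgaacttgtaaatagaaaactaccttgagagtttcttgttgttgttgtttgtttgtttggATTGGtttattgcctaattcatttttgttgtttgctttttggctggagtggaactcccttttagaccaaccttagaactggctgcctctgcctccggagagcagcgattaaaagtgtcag
Pemt, chr11:60040139-60040438, minus strand: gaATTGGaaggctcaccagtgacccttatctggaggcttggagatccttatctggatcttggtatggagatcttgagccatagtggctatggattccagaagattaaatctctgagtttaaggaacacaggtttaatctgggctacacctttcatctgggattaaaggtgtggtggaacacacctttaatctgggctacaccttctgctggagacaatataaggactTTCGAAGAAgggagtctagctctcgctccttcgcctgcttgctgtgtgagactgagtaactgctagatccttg
Fasn, chr11:120824498-120824797, minus strand: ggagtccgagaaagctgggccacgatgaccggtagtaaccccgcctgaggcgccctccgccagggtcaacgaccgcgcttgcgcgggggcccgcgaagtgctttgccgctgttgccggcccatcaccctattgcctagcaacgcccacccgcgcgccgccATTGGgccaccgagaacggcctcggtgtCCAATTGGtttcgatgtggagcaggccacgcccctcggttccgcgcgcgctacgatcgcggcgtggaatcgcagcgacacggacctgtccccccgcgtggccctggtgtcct
Smpd1, chr7:105554110-105554409, plus strand: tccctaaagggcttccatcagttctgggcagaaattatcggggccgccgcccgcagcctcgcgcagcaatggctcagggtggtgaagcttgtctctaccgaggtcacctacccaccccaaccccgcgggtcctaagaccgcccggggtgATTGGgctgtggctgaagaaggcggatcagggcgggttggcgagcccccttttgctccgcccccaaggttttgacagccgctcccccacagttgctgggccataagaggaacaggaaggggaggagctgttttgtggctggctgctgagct
A GAS element lay 23 bases upstream of this start of Pemt, and the window of its other start, chr11:60036956-60037255, held none. In Fasn, the CCAAT of one strand overlapped that of the other. Of all 32851 promoter windows 8.30% held TTCNNNGAA, and of the 93 windows found for 72 members 11 did (11.8%). CCAAT stood in 37.4% of all windows and in 46 of the 93 (49.5%). The E-box CACGTG, also searched on both strands, was in 7.15% of all windows and in 10 of the 93 (10.8%). These matches are a description of letters and say nothing of binding.

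Members stood mainly on the side of lower signal after LIF-siRNA. Of the 92 tested members, 44 were lower on both arrays (47.8%, against 36.8% of all gene spots tested), 23 were higher on both (25.0%, against 36.7%) and 25 had opposite signs. Their median log2 ratio was -0.28, with -0.16 on array 1 and -0.25 on array 2, beside -0.00 over all 8079 spots tested. Without the 4 peroxiredoxins the median was -0.20. Among the 45 members whose processed signal averaged over 1000 in Cy5 or in Cy3, the median was -0.45, while that of all 3527 such spots was 0.00. After another background correction (normexp) and loess, the median of the members was -0.14 and that of all spots 0.00. In 5 brightness classes of equal size, from the dimmest, the medians of the members were -0.01, -0.05, -0.39, -0.43 and -0.10, while those of all tested spots lay between -0.03 and 0.02.

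**Figure D1:**
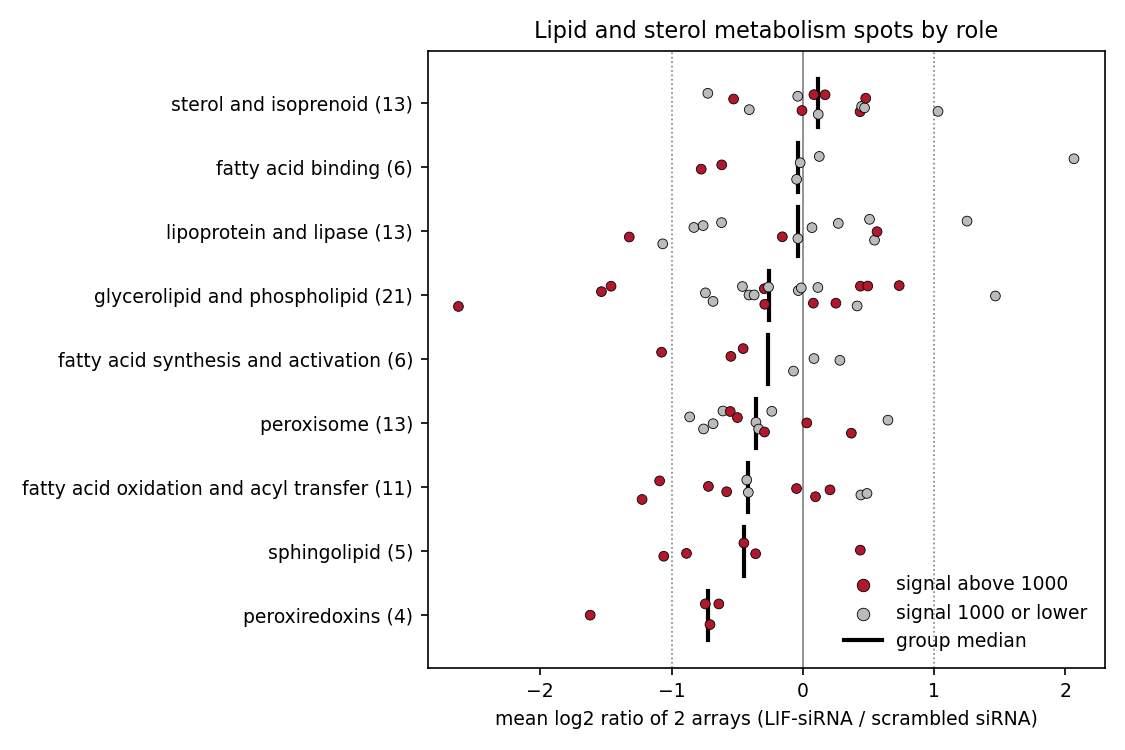
Mean log2 ratio of each of the 92 tested members over 2 arrays (horizontal axis), by role group, with the number of spots in brackets, the group median as a bar and a signal above 1000 in red. All 9 members past the criteria lie left of the dotted line at -1, and the peroxiredoxins have the lowest group median, -0.72. On array 2 alone the median of the peroxisome genes was lower (-0.55, against -0.49 for the peroxiredoxins).

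By the criteria of the study, a ratio above 2 or below 0.5 with a signal above 1000, 9 of 45 members were down-expression genes (20.0%, against 5.42% of all such spots). With these criteria applied to the mean of the deposited processed signals, 0 of 45 members passed on the higher side (0.00%, against 5.33%). Fabp2, which the study names among its up-expression genes, did not reach this signal in either channel. The study also reports that quantitative RT-PCR of its named genes, Fabp2 and Pemt among them, bore out its arrays. Without the signal threshold, 4 of the 92 tested members had a ratio above 2 (4.35%, against 6.96% of all spots tested), namely Fabp2, Pctp, Apoa2 and Hsd11b1. The Cy3 signal was not well above background for Hsd11b1 on either array and for Pctp on array 2, so their ratios are not firm. A log2 ratio below -1 on both arrays was found in 9 of 92 members (9.78%, against 3.03%), and above 1 on both in 1 (1.09%, against 2.78%). The Cy5 signals of both arrays lay below both Cy3 signals in 39 members (42.4%, against 31.2%) and above them in 21 (22.8%, against 31.4%). With limma, 0 members and 0 of all 8079 spots (0%) passed a Benjamini-Hochberg adjusted p of 0.05, and the smallest adjusted p was 0.058. At an unadjusted p under 0.05, 25 members were lower (27.2%, against 14.8%) and 6 higher (6.52%, against 15.9%). By the methods' t-test, 15 members had an unadjusted p under 0.05 (16.3%, against 10.7%) and 0 passed after Benjamini-Hochberg adjustment.

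The limma calls depended on the setting. Without the filter on dim spots, 0 members passed, and the smallest limma adjusted p over all spots was 0.157. With limma fitted to the spots with a signal above 1000 alone, 12 of 45 members passed, all lower (26.7%, against 10.0% of all such spots). Among them were Pemt, Prdx2, Hsd17b10, Dgka, Apoa1, Fasn, Smpd1, Stard10, Prdx4, Fabp5 and Cpt1a. With median centring of each array, 6 members passed (4.27% of all spots did), namely Pemt, Prdx2, Dgka, Apoa1, Hsd17b10 and, as the only higher one, Fabp2. With normexp and loess, Pemt and Prdx2 passed, 2 members (1.96% of all spots did).

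**Figure D2:**
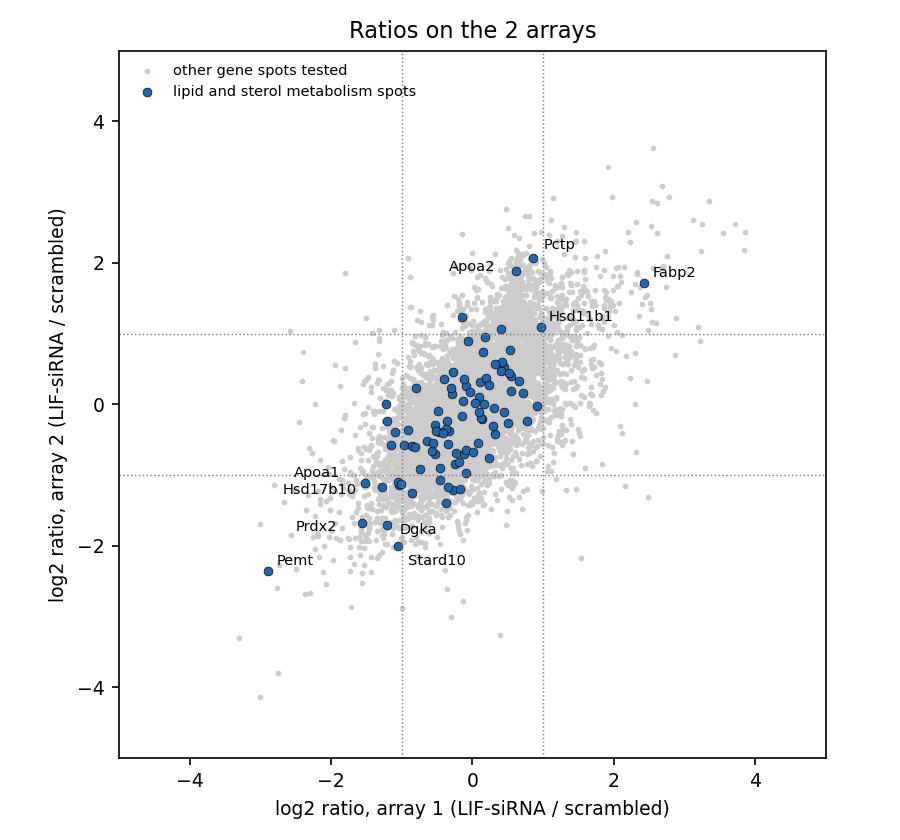
Log2 ratio on array 1 (horizontal axis) and array 2 (vertical axis) of the 92 tested members (blue) and of all other gene spots tested (grey), with dotted lines at -1 and 1. Pemt lies lowest of the members on array 1 and on array 2, at -2.89 and -2.36, and Fabp2 highest on array 1, at 2.42.

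Among the glycerolipid and phospholipid genes, the lowest ratios were those of Pemt and Stard10, which make or carry phosphatidylcholine. Pemt, which methylates phosphatidylethanolamine to phosphatidylcholine, gave signals of 1122 and 1319 after LIF-siRNA and of 8300 and 6766 after scrambled siRNA. The groups did not overlap, and the level after LIF-siRNA was 6.16-fold lower (mean log2 ratio -2.62 ± 0.37 (SD, n = 2), limma adjusted p = 0.058). Stard10, listed as phosphatidylcholine transfer protein-like, gave 1042 and 713 against 2171 and 2871, again without overlap. Its log2 ratios were -1.06 and -2.01 (mean -1.53 ± 0.67 (SD, n = 2), limma adjusted p = 0.072). Dgka, a kinase that turns diacylglycerol into phosphatidic acid, gave 1053 and 1014 against 2431 and 3325. Its mean log2 ratio was -1.46 ± 0.36 (SD, n = 2), with a limma adjusted p of 0.061.

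Pctp, the phosphatidylcholine transfer protein itself, gave dim signals of 59.7 and 83.7 against 32.8 and 19.9, and on array 2 its Cy3 signal was not well above background. Its mean log2 ratio was 1.47 ± 0.86 (SD, n = 2), and 0.45 after normexp and loess. Ptdss1, a phosphatidylserine synthase, and Plaa, an activator of phospholipase A2, had means of 0.44 and 0.50, and Pla2g7, which degrades platelet-activating factor, had 0.73. Of 21 tested spots of this group, 9 were lower on both arrays, 5 higher on both and 7 mixed, with a median of -0.26, which was -0.10 on array 1 alone and -0.12 after normexp and loess. The phosphatidylethanolamine binding protein had 2 spots that disagreed on array 1, at -0.80 and 0.24, and were close on array 2, at 0.23 and 0.27. The tested phospholipases A2 and D lay between -0.68 (Pld2, which was -0.30 after normexp and loess) and 0.41 (Pla2g4a) apart from Pla2g7.

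**Figure D3:**
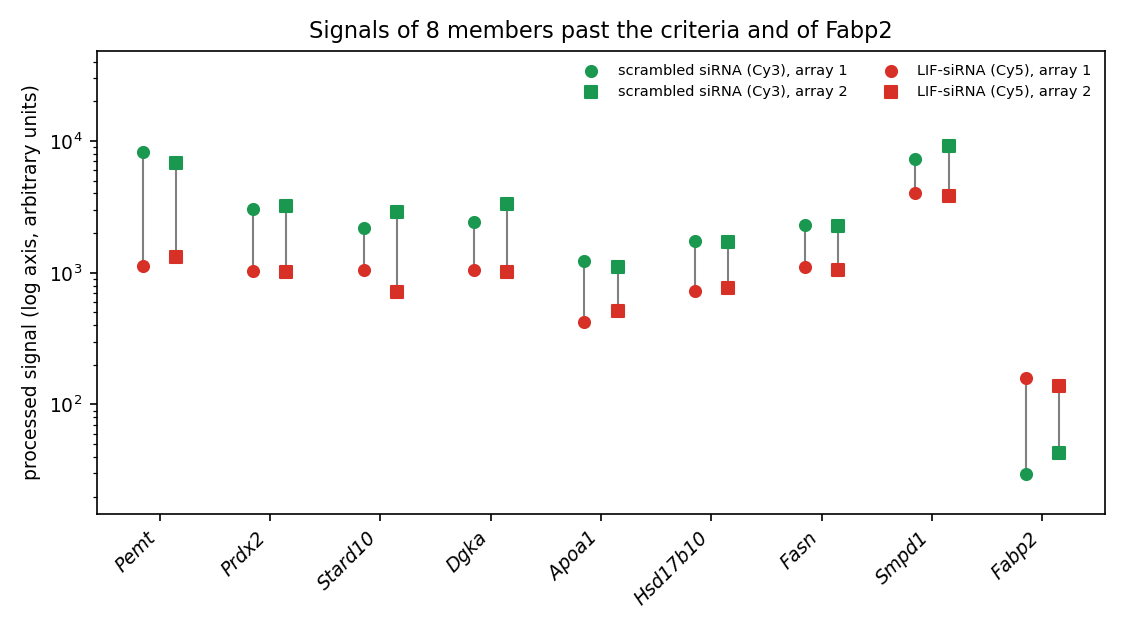
Processed signal (log axis) of 8 of the 9 members past the criteria and of Fabp2, after scrambled siRNA (Cy3, green) and LIF-siRNA (Cy5, red), with array 1 as circles, array 2 as squares and a line joining the channels of each array. In the 8 members every red point lies below both green ones, and in Fabp2, whose highest signal is 158, the order is the opposite.

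The fatty acid binding proteins, which carry fatty acids through the cytosol, stood on both sides. Fabp2, the intestinal form, gave 158 and 139 after LIF-siRNA and 29.5 and 42.6 after scrambled siRNA. The groups did not overlap, and the mean was 4.19-fold higher (log2 ratio 2.07 ± 0.51 (SD, n = 2), limma adjusted p = 0.058). These signals were far below 1000, and the Cy3 values exceeded 88.0% and 91.4% of the blank spots on arrays 1 and 2. After normexp and loess, the log2 ratio of Fabp2 was 0.87. Fabp5, the epidermal form, gave 6498 and 7623 against 12681 and 11416, a mean log2 ratio of -0.77 ± 0.27 (SD, n = 2). Fabp3, the heart form, gave 4865 and 5602 against 7007 and 9156, with a mean of -0.62 ± 0.13 (SD, n = 2). Neither overlapped between the channels. The other 3, Fabp1, Fabp4 and Fabp7, had opposite signs on the arrays and means between -0.05 and 0.13.

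Fabp2 is best known from the intestine, so markers of visceral endoderm, liver and intestine were read beside it. Of 6 such markers, 4 were on the array, and their summed signal was 296 and 385 in Cy5 and 305 and 433 in Cy3. Alpha fetoprotein had log2 ratios of 1.47 and 2.43 from signals of 134 and 217 against 48.5 and 40.1. Transthyretin had -0.07 and -0.12 and villin 0.26 and 0.43, and hepatic nuclear factor 4 was at least 2.33-fold lower, with Cy5 not well above background. That bound sets the mean log2 Cy3 signal against the higher of the dimmest well measured Cy5 spot and the gene's own Cy5 signal. Both were taken after normexp, loess and quantile scaling of the average brightness, and the bound is open to dye bias. The part of these markers in the ratio of Fabp2 was not tested.

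Fatty acid synthesis and oxidation both held members past the criteria, on the lower side. Fasn, which builds palmitate from malonyl-CoA, gave 1100 and 1055 after LIF-siRNA and 2288 and 2254 after scrambled siRNA. The arrays differed little, and the mean log2 ratio was -1.08 ± 0.03 (SD, n = 2), with a limma adjusted p of 0.070. The desaturases Scd1 and Scd2, which place a double bond into stearate, had means of -0.55 ± 0.42 and -0.45 ± 0.15 (SD, n = 2). Fads2, a desaturase of polyunsaturated fatty acids, had 0.28 ± 0.13 (SD, n = 2) and 0.11 after normexp and loess, and Acsl1, which activates long fatty acids to CoA esters, had 0.09.

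In oxidation, Hsd17b10, a mitochondrial hydroxyacyl-CoA dehydrogenase, gave 723 and 763 against 1748 and 1722 (mean log2 ratio -1.22 ± 0.07 (SD, n = 2), limma adjusted p = 0.063). The groups did not overlap. Cpt1a, the liver form of the enzyme that commits fatty acids to mitochondria, had -0.72 ± 0.19 and Acads, a short-chain dehydrogenase, -0.58 ± 0.09 (SD, n = 2). The muscle form Cpt1b had 0.49 ± 0.06 (SD, n = 2), from signals of at most 51.9, with Cy3 not well above background on array 2, and 0.15 after normexp and loess. Of the 11 spots of this group, 6 were lower on both arrays, 3 higher on both and 2 mixed. Carnitine acetyltransferase (Crat) and Cpt2, the inner membrane partner of Cpt1, had means of -0.43 ± 0.06 and -0.41 ± 0.41 (SD, n = 2). Acadvl, the very long chain dehydrogenase, was among the mixed ones, at 0.32 and -0.42, and Hacl1, which shortens branched fatty acids in the peroxisome, had 0.91 and -0.03. The thioesterase Acot10 had 0.10 on both arrays.

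All 4 peroxiredoxins were lower on both arrays. Prdx2 gave 1029 and 1008 after LIF-siRNA and 3035 and 3227 after scrambled siRNA, which is 3.07-fold lower (mean log2 ratio -1.62 ± 0.08 (SD, n = 2), limma adjusted p = 0.058). Prdx5 gave 5809 and 8341 against 12438 and 10902, and its log2 ratios were -1.10 and -0.39. Prdx4 and Prdx1 had means of -0.71 ± 0.15 and -0.64 ± 0.38 (SD, n = 2). The limma adjusted p of these 3 ranged from 0.11 to 0.16.

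Genes of the peroxisome were lower on both arrays in 7 of 13 tested spots and higher on both in 3, with a median of -0.36, which was -0.55 on array 2 alone and -0.20 after normexp and loess. Med1, listed as the binding protein of the peroxisome proliferator activated receptor and a subunit of the Mediator complex, was the lowest with the same sign on both arrays, at -0.86 ± 0.40 (SD, n = 2). Eci2, an isomerase for unsaturated fatty acids, had -0.56 on array 1 and -0.55 on array 2. Pxmp2, a channel of the peroxisomal membrane, had 0.65 ± 0.17 (SD, n = 2), and 0.41 after normexp and loess. Of the receptors, Ppara had 0.01 and -0.68, and Pparg did not pass the background filter. Their coactivator Ppargc1a had -1.22 and 0.00. Among the peroxins, which import proteins or shape the organelle, Pex5 (-0.35 and -1.16), Pex2 (-0.19 and -0.81) and Pex3 (-0.48 and -0.10) were lower on both arrays. Pex7, the import receptor for a further class of enzymes, had 0.55 and 0.19, Pex11a 0.04 and 0.02, and Pex19 0.07 and -0.55.

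Of the 5 sphingolipid genes, 4 were lower on both arrays. Smpd1, the lysosomal enzyme that splits sphingomyelin into ceramide, gave 4009 and 3804 against 7275 and 9097 without overlap, a mean of -1.06 ± 0.28 (SD, n = 2), with a limma adjusted p of 0.078. It passed 2-fold on array 2 alone, at -1.26 against -0.86 on array 1. The neutral form Smpd2 had -0.37 and -1.40. Sphk1, which makes sphingosine-1-phosphate, and Sgpl1, which cleaves it, had means of -0.36 ± 0.02 and -0.45 ± 0.10 (SD, n = 2). The phosphatase Sgpp1, which removes the phosphate from sphingosine-1-phosphate, was higher on both arrays, with 15532 and 15937 against 12501 and 10782 and a mean of 0.44 ± 0.18 (SD, n = 2).

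Lipoprotein genes held the apolipoproteins of high density lipoprotein on opposite sides. Apoa1 gave 425 and 510 after LIF-siRNA and 1222 and 1107 after scrambled siRNA, 2.50-fold lower (mean log2 ratio -1.32 ± 0.29 (SD, n = 2), limma adjusted p = 0.063). Apoa2 gave 535 and 826 against 349 and 223, with log2 ratios of 0.62 and 1.89 and a mean of 1.25 ± 0.90 (SD, n = 2), limma adjusted p = 0.10. Neither overlapped between the channels. Lrpap1, a chaperone of the receptors of this family, gave 270 and 297 against 544 and 646 (mean -1.07 ± 0.08 (SD, n = 2)), below the signal threshold. Lipoprotein lipase (Lpl) had -0.74 and -0.92, and Lrp2, an endocytic receptor, -0.14 and -0.17. The lipase Lipe had -0.45 and -1.06. After normexp and loess, the means of the dim spots Lpl and Lipe moved from -0.83 and -0.76 to -0.45 and -0.39. Apoc2, the activator of lipoprotein lipase, had 0.18 and 0.95, Apod, a carrier of small lipids, 0.42 and 0.60 (a mean of 0.51, and 0.30 after normexp and loess), and the receptor Lrp1 0.77 and -0.23. Of 13 tested spots, 6 were lower on both arrays, 3 higher on both and 4 mixed.

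Sterol and isoprenoid genes had a group median of 0.12, with 0.16 on array 1 and -0.10 on array 2. Of 13 tested spots, 5 were higher on both arrays, 3 lower on both and 5 mixed. The members Fdft1, Sqle, Hsd17b7 and Sc5d act in cholesterol synthesis from the making of squalene onward. Of these 4, 3 were higher on both arrays, as were 36.7% of all gene spots tested. The 7-dehydrocholesterol reductase, a later enzyme outside the name rule, had opposite signs on the arrays and is given below. Sc5d gave 568 and 556 after LIF-siRNA and 390 and 422 after scrambled siRNA, without overlap. The mean log2 ratios of Sc5d, Sqle and Hsd17b7 were 0.47 ± 0.10, 0.45 ± 0.41 and 0.44 ± 0.05 (SD, n = 2). After normexp and loess they were 0.42, 0.22 and 0.43. Fdft1, which makes squalene, had -0.28 and 0.45. The limma adjusted p of these 4 lay between 0.20 and 0.85, and they were set apart after their values had been seen.

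**Figure D4:**
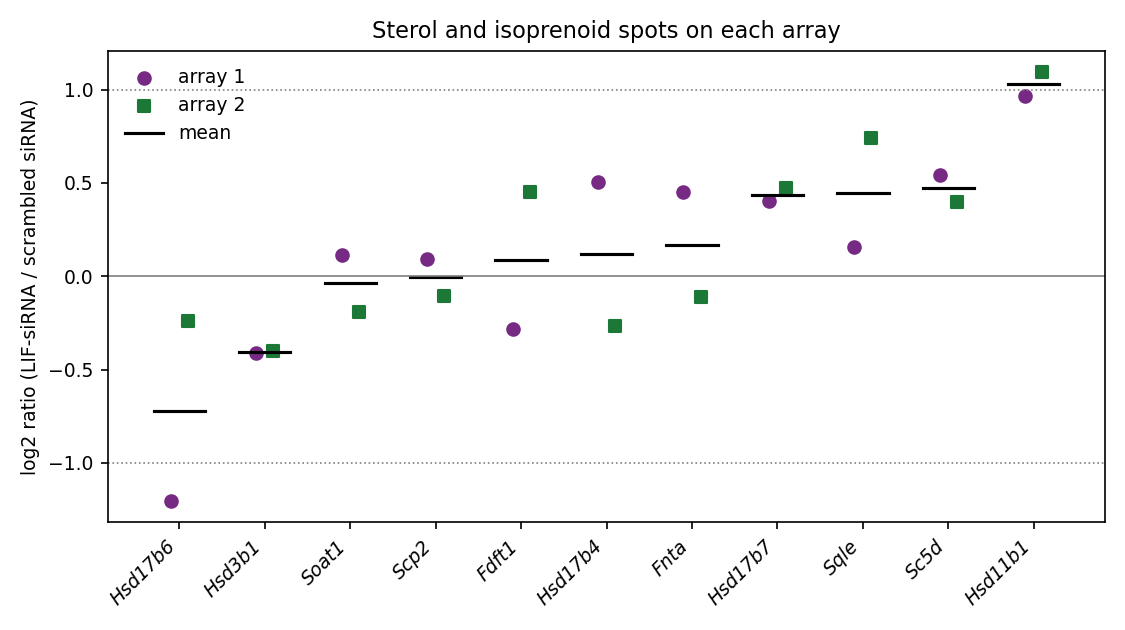
Log2 ratio of 11 of the 13 tested sterol and isoprenoid spots on array 1 (circles) and array 2 (squares), with the mean as a bar and dotted lines at -1 and 1, ordered by the mean. Sc5d, Sqle and Hsd17b7 have both points above 0, and 5 spots have points on both sides of 0.

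Scp2, which carries sterols, and Soat1, which esterifies cholesterol, had means of -0.01 and -0.04 with opposite signs on the arrays. Fnta, a subunit of protein farnesyltransferase, had 0.45 and -0.11. The steroid enzyme Hsd3b1 had -0.41 and -0.40, and a mean of -0.12 after normexp and loess. Hsd17b6 was the lowest of the group with the same sign on both arrays, at -1.20 and -0.24, with a mean of -0.72 that was -0.41 after normexp and loess. Hsd11b1, which activates glucocorticoids, had 28.6 and 28.7 in Cy5, and its Cy3 signal was not well above background on either array. It passed the background filter through Cy5 alone. After normexp and loess it was 1.14-fold higher after LIF-siRNA (log2 ratio 0.19), set against its own Cy3 signal. As that signal was not well above background, the value is no lower bound, and it is open to dye bias.

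Lipid genes outside the name rule, taken by other words in their names, numbered 46 spots. Of the 36 tested, 13 were lower on both arrays (36.1%, against 36.8% of all spots tested) and 15 higher on both (41.7%, against 36.7%), 0 passed the limma threshold, and the median log2 ratio was 0.11. Of the 7 with a signal above 1000, 2 were up-expression genes by the criteria (28.6%, against 5.33% of all such spots), the fatty acid transporter Slc27a2 (897 and 1210 against 327 and 286) and the transporter Abcg2 (1507 and 1347 against 652 and 599). The cytochrome P450 39a1, an oxysterol 7alpha-hydroxylase, gave 348 and 201 against 23.9 and 37.2, with Cy3 not well above background on array 1. The lipid droplet protein listed as adipose differentiation related protein had log2 ratios of -0.90 and -0.86. Mevalonate kinase, an early enzyme of cholesterol synthesis, had log2 ratios of -1.56 and -2.53 and was 1.34-fold lower after normexp and loess. Its Cy5 signal was not well above background on either array, so these values are not firm. The 7-dehydrocholesterol reductase, the last enzyme of cholesterol synthesis, had -0.23 and 0.30.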

How the data were processed

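2-color cDNA arrays of pooled morulae were compared, LIF-siRNA in Cy5 against scrambled siRNA in Cy3, as 2 replicates of 1 group. The authors deposited Agilent Feature Extraction output, in which the log10 ratio is of Cy5 over Cy3 after subtraction of background and rank-consistent lowess. The deposited intensity columns hold the mean and background brightness and the dye-normalized processed signal, in which low values may be surrogates. The deposited series table follows average brightness (r of 0.9985 on array 1) and was not used. Log ratios were converted to log2. Gene spots were tested, without outliers and without those near background in both channels of an array, with limma 3.58.1 in R 4.3.3 (lmFit, eBayes, intercept only, two-sided) with Benjamini-Hochberg adjustment over all of them, checked on simulated data. Other steps used Python 3.11.15 and pandas 2.3.3. Brightness is not comparable between spots. Gene symbols were paired with the names by hand. Named are the members the study names, those past its criteria or past 2-fold on both arrays, the extremes of each role group with the same sign on both arrays, and the 5 brightest; further members were named after their values were seen. Some members are not reported here by name. The members and lists were chosen with earlier results of these data known.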

Additional observations from a re-analysis of the deposited data

How the results depend on the processing

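Each ratio pairs both conditions within an array, so no other fit with a replicate block was run. The number of arrays limits the precision. The count of up-expression members, 0, became 4 without a signal threshold and 4 with well above background in its place, and lay between 0 and 1 without either replicate. The count of down-expression members, 9, lay between 7 and 11 under all alternatives. Members called by limma numbered 2 with normexp and loess, 6 with median centring and 12 over the spots past the signal threshold alone. Under the other alternatives they numbered 0. The cause of these differences was not tested, and the fit past the signal threshold held fewer spots (3527 against 8079). The median log2 ratio of the members moved to -0.14 with normexp and loess, -0.20 without peroxiredoxins and -0.45 past the signal threshold, and lay between -0.25 and -0.16 without either replicate. The fatty acid binding median (-0.03) turned to 0.011 with normexp and loess, the lipoprotein and lipase median (-0.04) to 0.070 without the filter on dim probes, and the sterol and isoprenoid median (0.12) to -0.10 without replicate 1 and 0.16 without replicate 2. Without replicate 2 the fatty acid oxidation median (-0.41) was -0.12 and the fatty acid binding median -0.27, and the lipoprotein and lipase median was -0.17 and -0.15 without either replicate and -0.07 with normexp and loess. None of the 25 members named by the rule turned its sign under normexp and loess or median centring. Under normexp and loess the ratios of some became smaller in size, such as that of Fabp2 (2.07 to 0.87). Without either replicate no sign could turn, because all 25 had the same sign on both arrays. No acylphosphatase was on the array.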
